A study of Mus musculus with 30 samples.

Results

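Described here are 9 of the 50764 gene models counted in this series: the ligand genes Vegfa, Vegfb, Vegfc and Pgf of the vascular endothelial growth factor (VEGF) family, the adrenomedullin gene Adm, and the receptor genes Flt1, Kdr, Nrp1 and Nrp2. They were taken by gene symbol through the deposited Ensembl identifiers, by a list chosen with earlier results of these data known. VEGF-A is the chief signal that makes endothelial cells divide, migrate and become leaky, and it acts through the receptor tyrosine kinase KDR (VEGFR2), while FLT1 (VEGFR1) binds VEGF-A, VEGF-B and placental growth factor tightly and can act as a trap. VEGF-C drives growth of lymphatic vessels, neuropilins 1 and 2 are co-receptors that also bind class 3 semaphorins, and adrenomedullin is a vasodilator peptide that signals through the receptor CALCRL with a RAMP partner protein. Vegfa and Adm are both textbook targets of the hypoxia-inducible transcription factors, and macrophages are a known source of VEGF-A in injured tissue.

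The 18 macrophage libraries form 6 groups of 3: macrophages given 1 uM ATRA (all-trans retinoic acid), the ligand of the retinoic acid receptors, macrophages given BMS493 at 1 uM, which is an inverse agonist of those receptors, macrophages co-cultured in contact with PDPN+ cells, macrophages that shared medium with PDPN+ cells across a transwell, macrophages cultured alone, and macrophages analysed ex vivo, whose source names speak of a lavage. The 12 PDPN+ libraries form 4 groups of 3, with BMS493, from co-culture, from transwell culture and alone, and their group label names them om_pdpn. Cultured cells were sorted as F4/80+ or PDPN+ cells, and polyA RNA was sequenced. The sources used here do not state the strain, age or sex of the mice or the length of culture. It is also not stated whether both cell types were together in the BMS493 cultures, but partner-cell markers there lay near their co-culture level and far above the transwell level (below). In comparisons of BMS493 with cells alone, BMS493 and the presence of partner cells therefore cannot be told apart. Nor can the treatment and the presence of partner cells be told apart where ATRA macrophages are set against BMS493 macrophages. No label says that replicates came from separate animals or cultures, so the spread behind each p-value may be technical. Libraries held 29350158 to 54099085 counts, and replicates 1, 2 and 3 of every group belong to the batches labelled mbb336, mbb339 and mbb340.

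The 8 macrophage markers summed to 55528 to 226887 CPM (counts relative to the scaled library total) in the macrophage libraries and to 61.0 to 3657 CPM in the PDPN+ libraries. Partner-cell transcripts were present after contact: the 8 fibroblast markers in co-culture macrophages lay at a median of 1.32% of their level in co-culture PDPN+ cells of the same batch, at 2.89% in the BMS493 groups and at 0.0926% in the transwell groups. Macrophage markers in PDPN+ cells lay at 1.73% of their level in the macrophages of the same batch after co-culture, at 2.41% with BMS493 and at 0.187% across the membrane. The co-culture libraries of batch mbb336 have swapped cell types in their source names, and the titles, which the markers fit, were followed. PDPN+ co-culture replicates 2 and 3 came from the fewest sorted cells, 3730 and 2148.

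Because Vegfa and Adm are the members described at most length below, the 250 bases before their annotated starts are shown from RefSeq (GRCm38.p6), with every match on either strand to the core of the hypoxia response element (ACGTG or GCGTG) in capitals. The Vegfa window is chr17:46032378-46032627 on the minus strand and the Adm window is chr7:110627407-110627656 on the plus strand.
Vegfa: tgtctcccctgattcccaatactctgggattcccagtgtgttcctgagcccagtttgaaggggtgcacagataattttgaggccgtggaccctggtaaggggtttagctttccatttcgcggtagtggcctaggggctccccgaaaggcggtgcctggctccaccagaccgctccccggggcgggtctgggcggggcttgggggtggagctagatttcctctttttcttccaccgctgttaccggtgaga
Adm: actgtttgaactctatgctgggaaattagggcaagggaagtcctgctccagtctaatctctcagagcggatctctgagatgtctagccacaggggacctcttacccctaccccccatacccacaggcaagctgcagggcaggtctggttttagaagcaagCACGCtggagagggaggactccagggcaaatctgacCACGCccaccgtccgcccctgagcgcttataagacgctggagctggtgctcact
The Adm window holds 2 matches, both to GCGTG, the nearer of which ends 49 bases before the start, and this Vegfa window holds none. A second annotated Vegfa start, inside the gene, has 2 matches in its window. Sequence beyond the 250 bases was not searched, so a window without a match does not mean a gene without the element. Of 32851 windows of 250 bases, 38.6% hold at least 1 match, 16.6% to ACGTG and 28.2% to GCGTG. The exact sequence AGGTCA, a half-site of the retinoic acid receptors, is in neither window and in 14% of all windows. Its exact direct repeat with a spacing of 5 bases (DR5) is in neither and in 0.00913% of all windows. Variant forms of the half-site were not searched.

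Vegfa (chromosome 17, 46016993 to 46032369, minus strand, GRCm38) rose steeply when macrophages were cultured. In macrophages cultured alone it stood at 52.8, 69.6 and 66.2 CPM in replicates 1, 2 and 3, against 0.814, 0.195 and 0.342 CPM in ex vivo macrophages. All 3 cultured libraries lay far above all 3 ex vivo libraries, which together held 47 Vegfa counts. Vegfa rose 143-fold in culture (log2 fold change 7.16, SE 0.68, edgeR adjusted p = 8.5e-06). Within batches the fold was 64.8, 356 and 194 in batches mbb336, mbb339 and mbb340. In these bulk samples, fewer cells that make a transcript and less of it per cell cannot be told apart. Of the 9 members 4 were called in this comparison, all higher in culture, against 17.8% of all genes called in either direction (called means an edgeR adjusted p under 0.05).

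Retinoic acid, contact with PDPN+ cells and PDPN+ cells across the membrane each went with higher Vegfa values than culture alone. The 3 ATRA libraries stood at 186, 317 and 248 CPM. The 3 co-culture libraries stood at 122, 178 and 375 CPM, and the 3 transwell libraries at 188, 155 and 299 CPM. Each of these 9 libraries exceeded all 3 libraries of macrophages cultured alone (52.8 to 69.6 CPM), which serve as the control of all 3 comparisons.

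None of these differences passed the test in the fit over all 18 macrophage libraries. The log2 fold change of Vegfa was 1.97 (SE 0.52) with ATRA over alone, at an edgeR adjusted p of 0.164 and a DESeq2 adjusted p of 0.0136. It was 1.79 (SE 0.52) in co-culture over alone, at an edgeR adjusted p of 0.134 and a DESeq2 adjusted p of 0.0186. In transwell culture over alone it was 1.72 (SE 0.52), at an edgeR adjusted p of 0.307, and DESeq2 did not call it. With a library left out the values were 1.74 to 2.12 (ATRA), 1.22 to 2.10 (co-culture) and 1.42 to 1.90 (transwell), none called. Few genes of any kind were called in these comparisons, 0.326% of all genes with ATRA, 0.698% in co-culture and 0.0281% in transwell culture, and 0 of the 9 members in each. At an unadjusted p under 0.05 the edgeR test took 1350, 2282 and 1700 of 17774 genes in the same order and 1, 2 and 1 members, while DESeq2 called 327, 712 and 242 genes and 1, 2 and 0 members. The test did not separate ATRA from co-culture macrophages for Vegfa (log2 fold change 0.17, SE 0.50, edgeR adjusted p = 0.995), with 0.0563% of all genes called and 0 members. Co-culture over transwell gave 0.07 (SE 0.50) at an edgeR adjusted p of 1, with 0.0394% of genes called and 0 members. At an unadjusted edgeR p under 0.05 those comparisons took 1321 and 794 genes, and DESeq2 called 242 and 148.

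With BMS493 the level of Vegfa in macrophages was lower than in any other macrophage culture. The BMS493 libraries stood at 16.1, 19.3 and 51.5 CPM, against 122, 178 and 375 CPM in co-culture macrophages. The highest BMS493 library lay below the lowest co-culture library. Vegfa fell by 2.98 on the log2 scale with BMS493 over co-culture, 7.90-fold lower (SE 0.54, edgeR adjusted p = 0.0161). Within batches it was 7.6-fold, 9.25-fold and 7.29-fold lower in batches mbb336, mbb339 and mbb340. It was the 1 member called of 9, against 0.85% of all genes. Without BMS493 replicate 1 or 2 the edgeR adjusted p was 0.103 or 0.118 (log2 fold change -2.68 or -2.75), and over the 6 libraries of these groups alone it was 0.124.

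Set against macrophages cultured alone, the BMS493 libraries again lay lower, without overlap, at 16.1 to 51.5 CPM against 52.8 to 69.6 CPM. A log2 fold change of -1.19 (SE 0.51) did not pass the test (edgeR adjusted p = 0.307), and 0 of the 9 members were called, against 0.737% of all genes. Batch mbb340 held the BMS493 library at 51.5 CPM. Without the 3rd replicate of every group the log2 fold change was -1.91 and the edgeR adjusted p was 0.0259. The edgeR test took 2556 genes at an unadjusted p under 0.05 and 1 member, and DESeq2 called 702 genes and 0 members.

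The comparison of the receptor ligand with the inverse agonist was added after the values had been seen. Vegfa stood at 186, 317 and 248 CPM with ATRA, against 16.1, 19.3 and 51.5 CPM with BMS493. It was 8.91-fold higher with ATRA (log2 fold change 3.16, SE 0.54, edgeR adjusted p = 0.0045), and the call held without any 1 of the 6 libraries. In the same comparison 4.01% of all genes were called, and Vegfa was the 1 member of 9. Fibroblast markers in the BMS493 macrophages lay at 2.59% to 3.19% of their level in BMS493 PDPN+ cells of the same batch, and their part in the result was not tested.

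**Figure D1:**
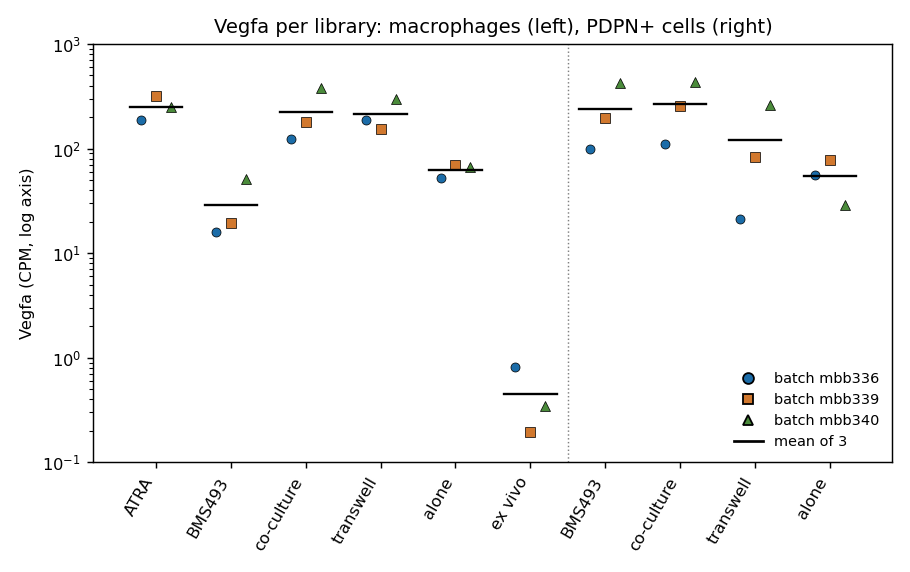
Vegfa in CPM (log axis) in each of the 30 libraries, with macrophage groups to the left of the dotted line and PDPN+ groups to the right, symbols for the batches and a bar at the mean of 3. Ex vivo macrophages average 0.450 CPM and macrophages cultured alone 62.9 CPM, and the macrophage groups with ATRA, in co-culture and in transwell culture average 250, 225 and 214 CPM.

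By group mean Vegfa in PDPN+ cells was of the same order as in macrophages of the matching culture, except with BMS493. There macrophages held 16.4%, 9.77% and 12.1% of the PDPN+ level in replicates 1, 2 and 3. Vegfa stood at 110, 256 and 437 CPM in co-culture PDPN+ cells, against 55.9, 78.4 and 29.0 CPM in PDPN+ cells cultured alone. The groups did not overlap, but the spread within them was wide, and the log2 fold change of 2.31 (SE 0.84) did not pass the test (edgeR adjusted p = 0.515). It was 1.04 without co-culture replicates 2 and 3, those of the fewest sorted cells, which left 1 co-culture library, of batch mbb336. The BMS493 libraries of PDPN+ cells stood at 98.3, 197 and 424 CPM, also above every library of PDPN+ cells alone (log2 fold change 2.12, SE 0.83, edgeR adjusted p = 0.392). Over co-culture the BMS493 value was -0.19 (SE 0.80, edgeR adjusted p = 1), and in each batch the BMS493 library lay below the co-culture library. The value became 1.09 without co-culture replicates 2 and 3. That fit set 1 co-culture library, of batch mbb336, against BMS493 libraries of all 3 batches. Transwell PDPN+ cells spanned 21.0, 83.9 and 259 CPM and overlapped with the cells alone (log2 fold change 1.19, SE 0.81, edgeR adjusted p = 1). This value was -0.29 without batch mbb340, which held the highest Vegfa library of the BMS493, co-culture and transwell groups and the lowest of the cells alone.

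The PDPN+ comparisons called few genes of any kind. The edgeR test called 0% of genes in co-culture over alone and in transwell culture over alone, 0.0157% with BMS493 over co-culture, 0.24% with BMS493 over alone and 0.00523% in co-culture over transwell, and 0 members in each. At an unadjusted p under 0.05 it took 1796, 426, 584, 2060 and 966 of 19134 genes in that order and 3, 0, 0, 5 and 2 members. DESeq2 called 351, 20, 116, 686 and 133 genes and 1, 0, 0, 1 and 1 members, each time Adm.

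Whether BMS493 went with different changes of Vegfa in the 2 cell types was tested as the change in macrophages minus the change in PDPN+ cells, each over its own cells alone. The difference was -3.27 on the log2 scale (SE 0.996) and did not pass the test (edgeR adjusted p = 0.106), although with the batch as a block it was -3.13 and the edgeR adjusted p was 0.0428. DESeq2 gave an adjusted p of 0.0221. Of all genes 1.92% were called in this test. For co-culture the same difference was -0.48 (SE 0.97, edgeR adjusted p = 0.931), and for transwell culture it was 0.58 (SE 0.97, edgeR adjusted p = 1).

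Ordered by mean, Vegfa was highest in co-culture PDPN+ cells (268 CPM), followed by ATRA macrophages (250 CPM), BMS493 PDPN+ cells (240 CPM), co-culture macrophages (225 CPM), transwell macrophages (214 CPM) and transwell PDPN+ cells (121 CPM). Macrophages alone (62.9 CPM), PDPN+ cells alone (54.5 CPM), BMS493 macrophages (28.9 CPM) and ex vivo macrophages (0.450 CPM) came last. Each group overlapped in range with the next, except BMS493 macrophages with ex vivo macrophages. For Vegfa the test did not separate PDPN+ cells alone from macrophages alone (log2 fold change -0.25, SE 0.69, edgeR adjusted p = 0.803).

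The genes whose levels were most like those of Vegfa over the 18 macrophage libraries, by Pearson r of log2(CPM + 1) among genes averaging at least 10 CPM, were Fblim1 (r = 0.964), Got1 (0.950), Tgm2 (0.949), Gm29094 (0.948) and Dtx4 (0.935). Tgm2 encodes transglutaminase 2 and is a known retinoic acid target in myeloid cells, and Got1 encodes the cytosolic aspartate aminotransferase. Over the 12 PDPN+ libraries they were Runx1 (r = 0.989), Slc41a2 (0.987), Itga5 (0.986), Mapk6 (0.985) and Bhlhe40 (0.984), of which Itga5 encodes the alpha 5 integrin that binds fibronectin and Bhlhe40 a transcriptional repressor. These libraries share batches and groups, so the r values describe the libraries and carry no test.

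PDPN+ libraries also differed in the marker genes of mesothelial cells, the lining cells of body cavities. The 8 mesothelial markers summed to 1100, 277 and 12.8 CPM in BMS493 libraries, to 1095, 181 and 36.7 CPM in co-culture libraries, to 1620, 1398 and 169 CPM in transwell libraries, and to 2651.5, 2178 and 1617 CPM in the libraries of PDPN+ cells alone. Every sum was lowest in batch mbb340. Vegfa was higher where this sum was lower (Pearson r = -0.868, Spearman rho = -0.937, r = -0.823 without the 2 libraries farthest from the median). The 4 pericyte and smooth muscle markers went the other way, with higher sums where Vegfa was higher (Pearson r = 0.788, Spearman rho = 0.811, r = 0.710 without the 2 farthest). They summed to 1056, 1905 and 1187 CPM in co-culture PDPN+ cells, against 606, 665 and 476 CPM in PDPN+ cells alone, without overlap. BMS493 libraries summed to 371, 809 and 852 CPM and transwell libraries to 267, 482 and 1202 CPM, and both groups overlapped with cells alone. For the 8 fibroblast markers r was 0.493 (Spearman rho 0.441), and it turned to -0.177 without the 2 farthest. The points share groups and batches, and the part of cell make-up in the Vegfa values was not tested.

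**Figure D2:**
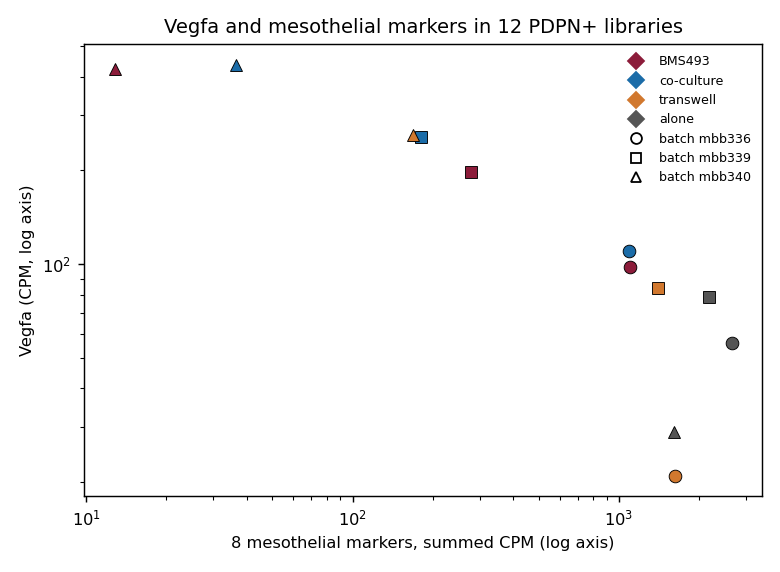
Vegfa against the summed level of 8 mesothelial marker genes in the 12 PDPN+ libraries, both in CPM on log axes, with colours for the groups and shapes for the batches. The libraries run from high marker sums with low Vegfa to low marker sums with high Vegfa (Pearson r = -0.868), and the transwell library of batch mbb340 lies far from the other transwell libraries.

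Vegfb, whose product binds FLT1 and neuropilin 1, was low in ex vivo macrophages and higher in macrophages cultured alone. It stood at 3.16, 13.7 and 17.5 CPM in macrophages alone, against 0.470, 0.781 and 2.94 CPM in ex vivo macrophages. The lowest cultured library, of batch mbb336, lay just above the highest ex vivo library. Vegfb rose 8.24-fold in culture (log2 fold change 3.04, SE 0.63, edgeR adjusted p = 0.00378), and in a fit of these 6 libraries only the edgeR adjusted p was 0.0651. Within batches the fold was 6.72, 17.6 and 5.96. BMS493 macrophages stood at 16.8, 26.8 and 19.97 CPM, against 11.7, 16.0 and 9.11 CPM in co-culture macrophages, and these groups did not overlap (log2 fold change 0.76, SE 0.58, edgeR adjusted p = 0.839). PDPN+ libraries ranged from 3.81 to 11.9 CPM with a median of 6.26 CPM.

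Vegfc (chromosome 8, 54077606 to 54187096), the lymphatic growth factor, was a PDPN+ cell transcript in these data. It stood at 7.34, 10.8 and 7.11 CPM in PDPN+ cells alone, against 0.520, 0.522 and 0.366 CPM in macrophages alone. Every PDPN+ library lay above every macrophage library, with 5.77 to 25.0 CPM in PDPN+ cells and 0 to 3.12 CPM in macrophages, 8 of whose libraries held no count. Vegfc was 4.11 higher in PDPN+ cells alone on the log2 scale (SE 1.34, edgeR adjusted p = 0.0187, and 0.0562 to 0.0597 without any 1 of the 3 macrophage libraries). Ex vivo macrophages held 0 counts, and set against a floor of 3 counts over that group macrophages alone were at least 18.1-fold higher (edgeR adjusted p = 0.0844, and 0.0313 with the batch as a block). Vegfc passed the filter of the macrophage fit mainly through macrophages alone, the higher group here, so these p-values carry no support for the rise. Floors cover counting error only.

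Pgf, the gene of placental growth factor, was close to the detection limit in most libraries. It stood at 1.62, 2.15 and 20.9 CPM in co-culture PDPN+ cells, against 0.686, 0 and 0 CPM in PDPN+ cells alone. The groups did not overlap, but 1 co-culture library, that of the fewest sorted cells, held most of the level (log2 fold change 5.19, SE 1.81, edgeR adjusted p = 0.504). Macrophage libraries lay between 0 and 2.55 CPM, and the highest Pgf library of the ATRA, BMS493, co-culture, transwell and alone groups was that of batch mbb340.

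Adm (chromosome 7, 110627661 to 110629820, plus strand) was far higher in PDPN+ cells than in macrophages when each was cultured alone. It stood at 225, 114 and 119 CPM in PDPN+ cells alone, against 0.624, 2.63 and 5.71 CPM in macrophages alone. The groups were far apart. Adm was 49.7-fold higher in PDPN+ cells alone (log2 fold change 5.63, SE 0.82, edgeR adjusted p = 9.08e-06). In this comparison 6 of the 9 members were called, 4 higher and 2 lower in PDPN+ cells, against 38.9% of all genes. The antisense gene Gm28863 overlaps Adm and held at most 19 counts per library.

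In macrophages Adm, like Vegfa, was barely present ex vivo. Macrophages alone stood at 0.624, 2.63 and 5.71 CPM, against 0.219, 0.0434 and 0.171 CPM in ex vivo macrophages. Every cultured library lay above every ex vivo library, by the least in batch mbb336. Adm rose 20.7-fold in culture (log2 fold change 4.37, SE 0.79, edgeR adjusted p = 0.00147), with folds of 2.85, 60.6 and 33.4 within batches mbb336, mbb339 and mbb340.

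Co-culture was the macrophage group with the most Adm. It stood at 28.9, 17.2 and 17.1 CPM in co-culture macrophages, against 0.624, 2.63 and 5.71 CPM in macrophages alone. The groups did not overlap, and within batches the fold was 46.4, 6.52 and 2.99. The log2 fold change of 2.79 (SE 0.68) did not pass the test (edgeR adjusted p = 0.0726). The edgeR adjusted p was 0.0498 with the batch as a block, 0.0296 without batch mbb340 and 0.0385 without replicate 3 of macrophages alone, and the DESeq2 adjusted p was 0.00122. The other 8 settings did not call Adm, at an edgeR adjusted p up to 0.239, or up to 0.287 with a library left out. Adm in co-culture macrophages lay at 84.8%, 107% and 45.7% of its level in the PDPN+ cells of the same batch, where the fibroblast markers lay at 1.15% to 3.09%.

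The other macrophage cultures held less Adm than co-culture. Transwell libraries stood at 7.20, 5.29 and 3.40 CPM, BMS493 libraries at 10.3, 3.28 and 3.84 CPM, and ATRA libraries at 1.99, 2.05 and 3.96 CPM. Each of these groups overlapped in range with macrophages alone, and none overlapped with co-culture macrophages. The log2 fold change was -1.88 with BMS493 over co-culture (SE 0.66, edgeR adjusted p = 0.33), -2.97 with ATRA over co-culture (SE 0.69, edgeR adjusted p = 0.172, DESeq2 adjusted p = 0.00128) and 1.98 in co-culture over transwell (SE 0.66, edgeR adjusted p = 0.641). With ATRA over alone it was -0.18 (SE 0.65, edgeR adjusted p = 0.992), a value that turned to 0.26 without batch mbb340.

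In PDPN+ cells Adm was lower in co-culture than in cells alone. Co-culture PDPN+ cells stood at 34.1, 16.1 and 37.4 CPM, against 225, 114 and 119 CPM in PDPN+ cells alone. The highest co-culture library lay below the lowest library of cells alone, and within batches Adm was 6.60-fold, 7.07-fold and 3.17-fold lower. The log2 fold change was -2.37 (SE 0.71), which the edgeR test did not call (adjusted p = 0.406) and DESeq2 did (adjusted p = 0.0393). BMS493 PDPN+ cells stood at 16.4, 9.12 and 30.2 CPM, also below every library of cells alone (log2 fold change -3.06, SE 0.73, edgeR adjusted p = 0.134, DESeq2 adjusted p = 0.00112). Transwell PDPN+ cells stood at 380, 112 and 51.5 CPM and overlapped with cells alone (log2 fold change 0.34, SE 0.67, edgeR adjusted p = 1), a value that was -0.90 without transwell replicate 1. Co-culture over transwell gave -2.72 (SE 0.72, edgeR adjusted p = 0.603, DESeq2 adjusted p = 0.0251).

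The change of Adm itself differed between the cell types. The log2 fold change of co-culture over alone in macrophages minus that in PDPN+ cells was 5.18 (SE 1.01, edgeR adjusted p = 0.00872), and the call held without any 1 of the 12 libraries (edgeR adjusted p 0.00586 to 0.0351). Adm was the 1 member called of 9, against 0.986% of all genes. For BMS493 over alone the same difference was 3.99 (SE 0.99, edgeR adjusted p = 0.0346), again with Adm as the 1 member called, against 1.92% of all genes. That call was lost without replicate 1 of BMS493 macrophages, BMS493 PDPN+ cells or PDPN+ cells alone, without replicate 1 or 2 of macrophages alone and without replicate 2 of BMS493 PDPN+ cells (edgeR adjusted p up to 0.125). For transwell culture the difference was 0.53 (SE 0.96, edgeR adjusted p = 1), 0% of genes were called, 931 had an unadjusted edgeR p under 0.05 and DESeq2 called 33. Adm was higher in PDPN+ libraries with more mesothelial marker transcripts (Pearson r = 0.541, Spearman rho = 0.692, r = 0.692 without the 2 farthest). It was lower in those with more fibroblast markers (r = -0.557, rho = -0.615, r = -0.364 without the 2 farthest) and with more pericyte and smooth muscle markers (r = -0.566, rho = -0.510, r = -0.230 without the 2 farthest). The part of these markers in the difference was not tested.

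**Figure D3:**
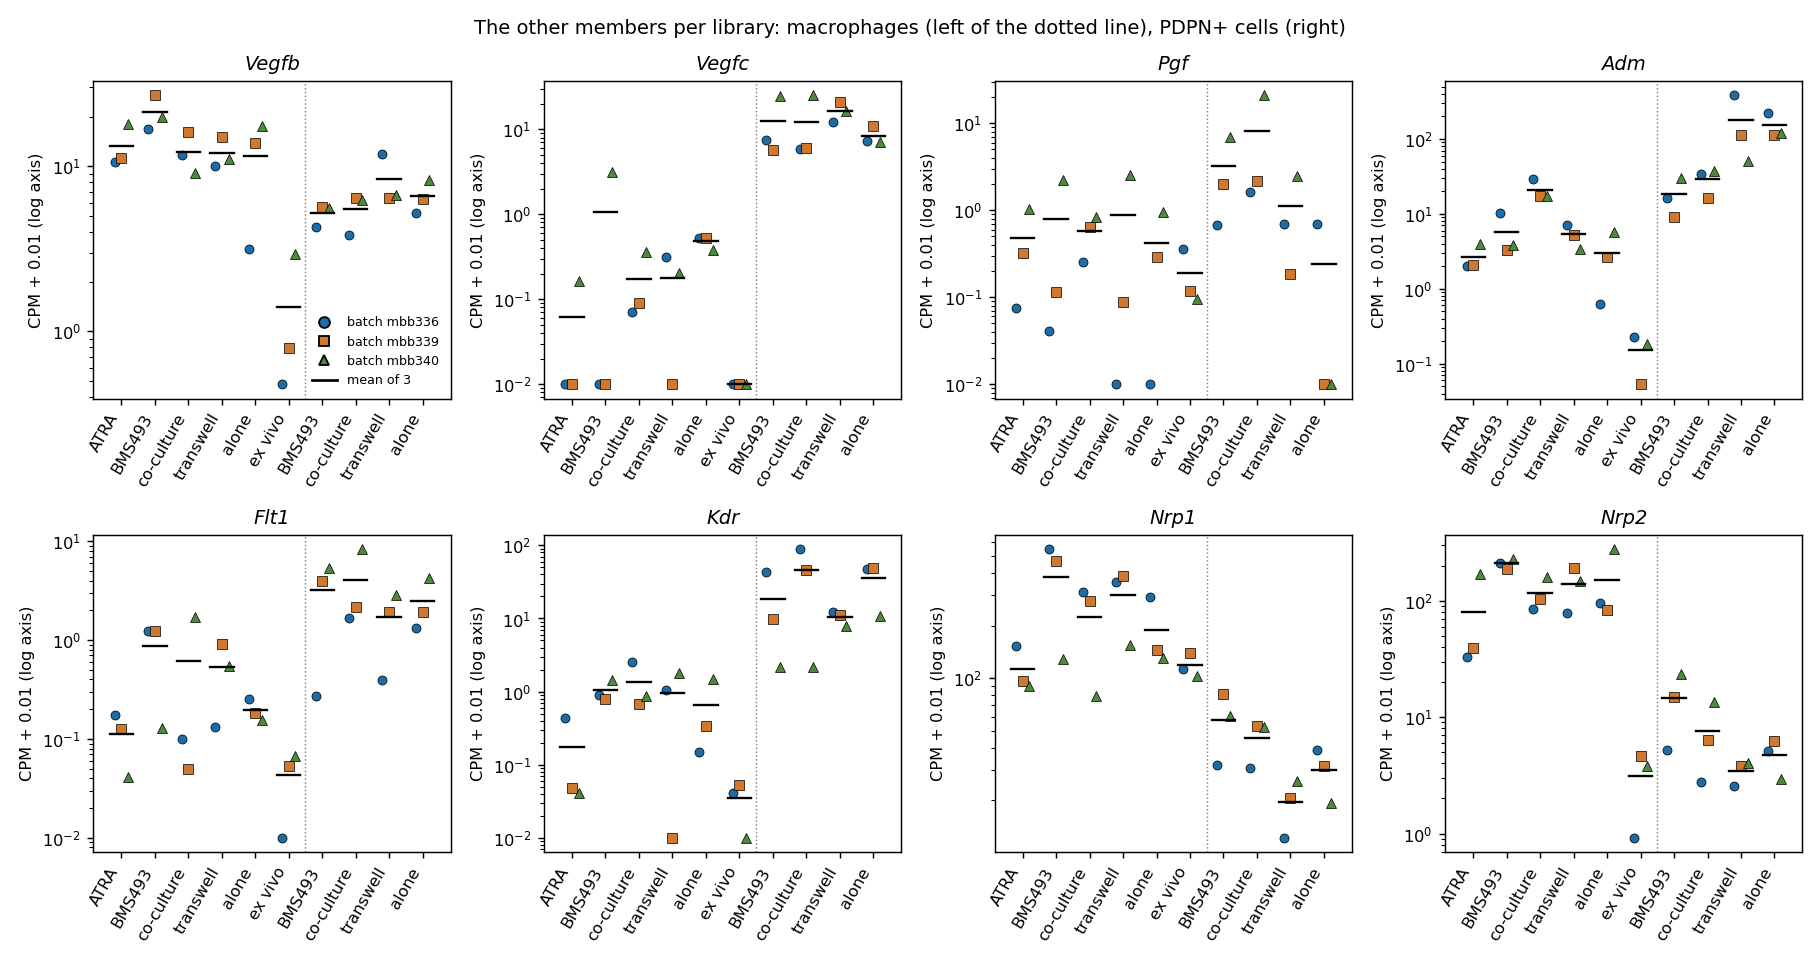
CPM plus 0.01 (log axis) of the 8 other members in each of the 30 libraries, with macrophage groups left and PDPN+ groups right of the dotted line in each panel, symbols for the batches and a bar at the mean of 3. Adm averages 153 CPM in PDPN+ cells alone and 2.99 CPM in macrophages alone, while Nrp2 averages 4.75 CPM in PDPN+ cells alone and 152 CPM in macrophages alone.

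Flt1 and Kdr, the genes of the signalling receptors, were nearly silent in macrophages. Flt1 lay between 0 and 1.70 CPM and Kdr between 0 and 2.50 CPM in the 18 macrophage libraries. Flt1 stood at 1.31, 1.89 and 4.27 CPM in PDPN+ cells alone, against 0.243, 0.174 and 0.146 CPM in macrophages alone. It was low in both, without overlap, and 3.68 higher in PDPN+ cells on the log2 scale (SE 1.24, edgeR adjusted p = 0.0214, and 0.0552 to 0.0735 without replicate 1, 2 or 3 of macrophages alone, or without replicate 3 of PDPN+ cells alone, and 0.0738 without batch mbb340). No gene averaging at least 10 CPM followed Flt1 closely over the macrophage libraries, where the highest Pearson r, of Ercc3, was 0.685, followed by Ampd3, Gpt2, Gm9762 and Gas2l1 (0.680, 0.672, 0.666 and 0.660). Flt1 counts there are too few for such values to be read as a pattern.

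Kdr (chromosome 5, 75932827 to 75978458), the gene of the main VEGF-A receptor, was clearly present in PDPN+ cells. It stood at 47.1, 48.8 and 10.9 CPM in PDPN+ cells alone, against 0.139, 0.326 and 1.46 CPM in macrophages alone. The lowest PDPN+ library lay above the highest macrophage library. Kdr was 54.4-fold higher in PDPN+ cells alone (log2 fold change 5.76, SE 1.37, edgeR adjusted p = 0.00171). Across PDPN+ groups it spread widely, with 43.9, 9.89 and 2.18 CPM with BMS493, 88.7, 45.4 and 2.17 CPM in co-culture and 12.1, 11.0 and 7.94 CPM in transwell culture. In each of the 4 PDPN+ groups the library of batch mbb340 was the lowest, and no PDPN+ comparison called Kdr.

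Kdr is best known from endothelial cells, so their markers were examined. Cldn5 and Sox17 were at 0 in all groups, and Cdh5, the gene of VE-cadherin, averaged at most 0.147 CPM in any group. The 10 endothelial markers summed to 0.457 to 25.4 CPM per macrophage library and 3.70 to 19.7 CPM per library of PDPN+ cells, where Esam and Egfl7 made up most of the sum. Mesothelial marker sums and Kdr had a Pearson r of 0.703 over the 12 PDPN+ libraries (Spearman rho 0.657), which rests on the 2 libraries farthest from the median, since r was 0.284 without them. For fibroblast markers and Kdr r was 0.50 (Spearman rho 0.406) and 0.685 without the 2 farthest. In macrophages alone over ex vivo, where Kdr stood at 0.139, 0.326 and 1.46 CPM against 0.0313, 0.0434 and 0 CPM, the edgeR adjusted p was 0.0543, 0.0464 with the batch as a block, 0.0459 without replicate 1 of macrophages alone and, by DESeq2, 0.0101. The other 8 settings did not call Kdr, at an edgeR adjusted p up to 0.339, or up to 0.192 with a library left out. Ex vivo macrophages held 3 Kdr counts together.

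The co-receptor genes Nrp1 and Nrp2 were both lower in PDPN+ cells than in macrophages when each was cultured alone. Nrp1 stood at 39.1, 31.6 and 19.3 CPM in PDPN+ cells alone, against 291, 145 and 131 CPM in macrophages alone. The groups were well apart, and Nrp1 fell by 2.70 on the log2 scale in PDPN+ cells relative to macrophages (SE 0.54, edgeR adjusted p = 0.000375). Over all groups the cell types overlapped for Nrp1, since the highest PDPN+ library, with BMS493, held 81.7 CPM and the lowest macrophage library, from co-culture, 79.5 CPM. Nrp1 was present before culture, with 113, 139 and 103 CPM in ex vivo macrophages, which overlapped in range with macrophages alone (log2 fold change 0.69, SE 0.55, edgeR adjusted p = 0.44).

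Nrp1 was lower with ATRA than with BMS493 in every batch, at 153, 96.4 and 91.0 CPM with ATRA, against 549, 469 and 129 CPM with BMS493. The groups overlapped, and the library of batch mbb340 was the lowest for Nrp1 in all 6 macrophage groups. As for Vegfa, the treatment cannot be told apart here from the presence of partner cells. Nrp1 had a log2 fold change of -1.69 (SE 0.57, edgeR adjusted p = 0.113). It was -1.51 with the batch as a block (edgeR adjusted p = 0.0183), -2.10 without BMS493 replicate 3 (edgeR adjusted p = 0.0424) and -1.94 without batch mbb340 (edgeR adjusted p = 0.00657). DESeq2 also called Nrp1 in this comparison. Nrp1 stayed uncalled in 7 settings, and with a library left out the value ran to -1.32 and the edgeR adjusted p to 0.33.

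Nrp2 (chromosome 1, 62703285 to 62818695) was low before culture, where its mean of 3.09 CPM was below that of each PDPN+ group (3.46 to 14.6 CPM). It stood at 95.0, 83.4 and 278 CPM in macrophages alone, against 0.908, 4.60 and 3.76 CPM in ex vivo macrophages. All cultured libraries lay far above the ex vivo libraries. Nrp2 rose 48.6-fold (log2 fold change 5.60, SE 0.77, edgeR adjusted p = 0.00018), with folds of 105, 18.1 and 73.8 within batches. In PDPN+ cells alone it stood at 5.08, 6.26 and 2.91 CPM, against the values of macrophages alone above, and it fell by 5.04 on the log2 scale relative to macrophages (SE 0.77, edgeR adjusted p = 1.73e-05). With ATRA it stood at 33.0, 39.6 and 169 CPM, against 213, 188 and 230 CPM with BMS493. These groups did not overlap (log2 fold change -1.37, SE 0.64, edgeR adjusted p = 0.266), and with the batch as a block the value was -1.70 at an edgeR adjusted p of 0.0449, and without ATRA replicate 3 it was -2.48 at 0.0355. Without batch mbb340 it was -2.38 at an edgeR adjusted p of 0.0268. Nrp2 stayed uncalled in 8 settings, and with a library left out the value ran to -1.01 and the edgeR adjusted p to 0.591. Here too the treatment cannot be told apart from the presence of partner cells. The antisense gene Gm29083 overlaps Nrp2 and held at most 17 counts per library.

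**Figure D4:**
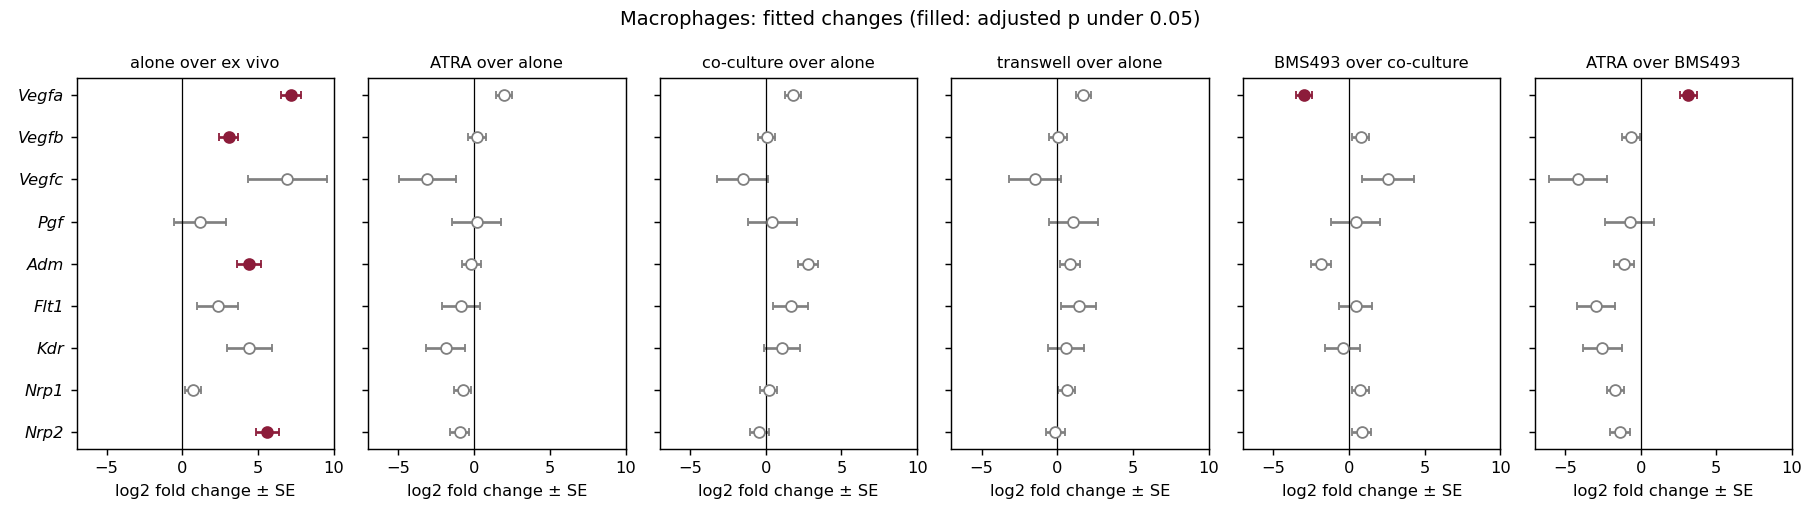
Fitted log2 fold changes with their SE for the 9 members in 6 macrophage comparisons, filled where the edgeR adjusted p is under 0.05. Vegfa, Vegfb, Adm and Nrp2 are filled in culture alone over ex vivo, and Vegfa is filled with BMS493 over co-culture (-2.98) and with ATRA over BMS493 (3.16).

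Levels of different genes can be compared on the authors' size-factor-adjusted RPKM (nRPKM), which accounts for gene length. Of the summed nRPKM of the 9 members, Nrp1 made up 94.9% in ex vivo macrophages and 53.5% in macrophages alone, where Vegfa made up 0.386% and 19.0%. With ATRA the share of Vegfa was 57.3% and that of Nrp1 26.4%. In BMS493 macrophages Vegfa made up 6.99% and Nrp1 62.9%. Adm made up 17.5% in co-culture PDPN+ cells, where Vegfa made up 54.5%, and 72.9% in PDPN+ cells alone, where Vegfa made up 10.7%. Flt1 stayed at or under 0.25% in every group.

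**Figure D5:**
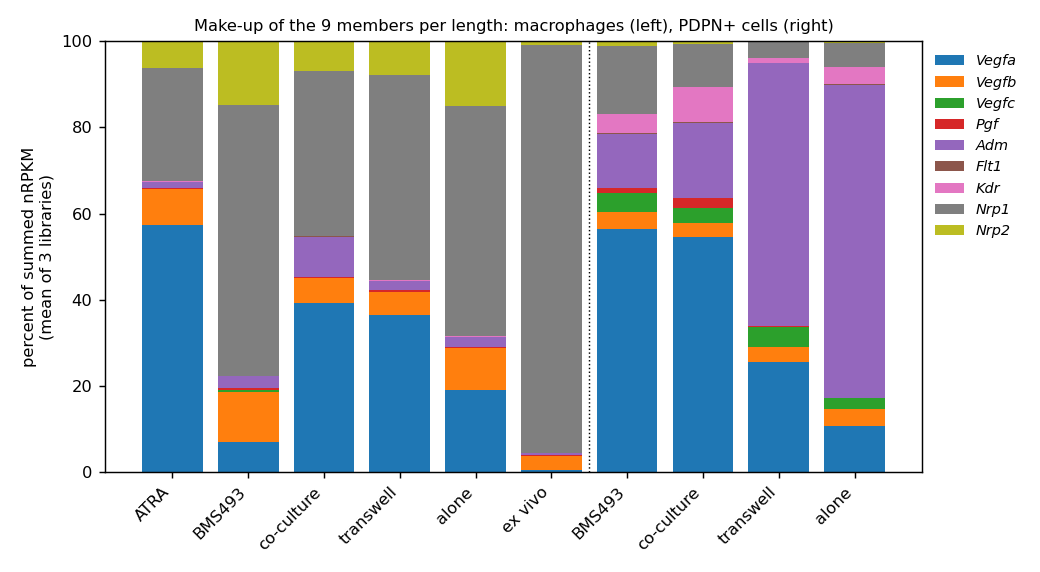
Mean share, in percent of the summed nRPKM, of each of the 9 members in the 10 groups, with macrophage groups left and PDPN+ groups right of the dotted line. Nrp1 fills most of the ex vivo bar (94.9%), Vegfa most of the ATRA bar (57.3%) and Adm most of the bar of PDPN+ cells alone (72.9%).

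Of 6 adrenomedullin receptor and other VEGF family genes, 2 were higher and 2 lower in PDPN+ cells alone over macrophages alone, against 38.9% of all genes called in either direction. Calcrl, the adrenomedullin receptor gene, averaged 4.07 ± 2.33 CPM in PDPN+ cells alone and 81.5 ± 32.2 CPM in macrophages alone (SD, n = 3 each), and fell by 4.37 on the log2 scale in PDPN+ cells (edgeR adjusted p = 5.85e-05). Of its partner genes, Ramp2 averaged 2.41 CPM in PDPN+ cells alone and had no count in macrophages alone. Ramp3 averaged 2.25 ± 0.509 CPM in macrophages alone and 37.8 ± 13.0 CPM in ex vivo macrophages, and fell by 4.07 (edgeR adjusted p = 0.0151). Ramp1 averaged 2.55 CPM in macrophages alone and 0.201 CPM in ex vivo macrophages (log2 fold change 3.65, edgeR adjusted p = 0.0141). Calcrl did not pass the test there (81.5 and 101 CPM, edgeR adjusted p = 0.607).

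Vegfd, a ligand of lymphatic vessels, averaged 479 ± 108 CPM in PDPN+ cells alone and 0.132 ± 0.101 CPM in macrophages alone (edgeR adjusted p = 0.000164). It averaged 141 ± 163 CPM in co-culture PDPN+ cells (edgeR adjusted p = 0.64 over PDPN+ cells alone). Flt4, the gene of the lymphatic receptor VEGFR3, averaged 7.71 ± 2.41 CPM in co-culture PDPN+ cells and 0.964 ± 1.05 CPM in PDPN+ cells alone, without overlap but not called (edgeR adjusted p = 0.441). Of 12 semaphorin and plexin genes that pair with neuropilins, 7 were higher in PDPN+ cells alone and 1 was lower, set against macrophages alone, where 38.9% of all genes were called. Sema3a averaged 197 ± 100 CPM in PDPN+ cells alone and 0.301 CPM in macrophages alone, Sema3d 111 ± 65.6 CPM against no count, Sema3f 60.2 ± 20.6 CPM against 0.163 CPM and Plxna4 31.8 ± 13.9 CPM against 2.45 CPM.

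Other hypoxia-inducible genes moved less evenly than Vegfa in culture. Of 20 such genes 8 rose and 1 fell in macrophages alone relative to ex vivo (17.8% of all genes were called), with a median log2 fold change of 0.76 against 0.08 over all genes. Slc2a1, the glucose transporter 1 gene, rose by 2.46, Bnip3, a mitophagy receptor gene, by 2.32, Pfkfb3 by 2.26 and Pfkfb4 by 1.99 (edgeR adjusted p from 3.05e-05 to 0.0242), while P4ha2, a collagen prolyl hydroxylase gene, fell by 1.38. Of 6 oxygen-sensing genes tested Hif1a (1.67) and Vhl (1.26) rose. In co-culture macrophages over macrophages alone P4ha1, P4ha2 and Hk2 rose (1.01, 1.44 and 1.28), 3 of 20 against 0.698% of all genes, and the list median was 1.12 against -0.03 over all genes. With ATRA over alone Hk2, the hexokinase 2 gene, rose by 1.24 as the 1 called of 20, against 0.326% of all genes. With BMS493 over co-culture Hk2 fell by 1.20 as the 1 called of 20, against 0.85% of all genes. In that comparison Epas1, the gene of HIF-2 alpha, fell to 14.9 ± 6.43 CPM, against 71.0 ± 20.3 CPM in co-culture (log2 fold change -2.28, edgeR adjusted p = 0.018).

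Among 12 other vessel growth factors and inhibitors tested in macrophages, Angptl4, Pdgfa and Pdgfb rose in culture alone over ex vivo by 3.36, 2.27 and 3.29 on the log2 scale (edgeR adjusted p 0.0209, 0.0224 and 0.00185), against 17.8% of all genes called. Retinoic acid response genes, followed as a check of the treatments, went another way than Vegfa in culture: of 7 tested, 5 fell and 1, Tgm2, rose in macrophages alone over ex vivo, again against 17.8% of all genes. Rarb averaged 23.8 ± 9.96 CPM with ATRA and 1.58 ± 1.08 CPM in macrophages alone (edgeR adjusted p = 0.00206), and Tgm2 averaged 85.1 ± 42.9 CPM with BMS493 and 843 ± 453 CPM in co-culture (edgeR adjusted p = 0.0129).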

How the data were processed

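PolyA RNA of 30 mouse libraries in 10 groups of 3 was analysed. Per the file headers, the deposited tables hold whole-number counts of reads for 50764 gene models, 192 of them without a symbol, and a size-factor-adjusted RPKM (nRPKM) made by the authors. The submitters' processing notes name GSNAP and GRCm38, with no version, annotation or strand setting stated. Strand-blind counting would mix a gene with its antisense partner.

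CPM are counts over TMM-scaled totals of all 30 libraries, which differed from the authors' scaling by at most 0.06 (log2). Genes kept by edgeR's default filter by group (17774 in 18 macrophage libraries, 19134 in 12 PDPN+ libraries, 20987 in all 30 for comparisons across cell types) entered edgeR's quasi-likelihood test (edgeR 4.0.16, limma 3.58.1, R 4.3.3) with group as the only term, Benjamini-Hochberg adjustment over all genes, called at an adjusted p under 0.05. All 9 members passed the filter in each fit, in some cases through the groups where they are high. The alternatives were DESeq2 1.42.0, RLE scaling, no filter, the 6 libraries compared only, batch as a block, batch mbb340 left out and each library left out. The test was run on simulated data first. Groups said not to overlap are described by the ranges of their 3 libraries, which carry no test. The share of all genes without overlap is not given. Common dispersion gave coefficients of variation of 0.499 (macrophages) and 0.573 (PDPN+ cells).

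Replicate numbers mark batches by label and so pair the libraries. Deviations from group means had a median r across genes of 0.307 between same-numbered macrophage libraries (33 of 45 pairs over 0.1, range -0.098 to 0.760) and 0.209 between same-numbered PDPN+ libraries (14 of 18, range -0.403 to 0.724). Nothing marked replicates as copies (lowest chi-square per degree of freedom 42.7). The members and lists were chosen with earlier results of these data known. From each list, called genes with the largest changes and at least 10 CPM in the higher group are named, up to 4, and Calcrl, the Ramp genes, Flt4 and Vegfd always. Sequences are from RefSeq tables, which held promoters for all 9 members.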

Additional observations from a re-analysis of the deposited data

Results flagged for a closer look

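The change of Adm in co-culture over culture alone differed between the cell types by 5.18 on the log2 scale (macrophages minus PDPN+ cells, edgeR interaction test, adjusted p = 0.00872). With BMS493 over alone the difference for Adm was 3.99 (edgeR adjusted p = 0.0346). In both tests the libraries of cells cultured alone are shared, so they are not independent of each other. Groups of 3 are too small to be screened for single libraries that stand apart.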

How the results depend on the processing

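In culture alone over ex vivo 4 to 6 members were called under all alternatives run, and in PDPN+ cells alone over macrophages alone 4 to 6 (6 as reported). With no member called as reported, DESeq2 called 1 member with ATRA over alone, 1 with ATRA over co-culture and, in PDPN+ cells, 1 each in co-culture over alone, BMS493 over alone and co-culture over transwell. In co-culture macrophages over alone the count was 1 with the replicate block, 1 without batch mbb340, 2 with DESeq2 and 0 to 1 with a library left out. With BMS493 over co-culture in macrophages (1 as reported) it was 0 over the 6 libraries compared and 0 to 1 with a library left out, and with BMS493 over alone it was 1 without batch mbb340. With ATRA over BMS493 (1 as reported) it was 3 with the replicate block, 3 without batch mbb340, 2 with DESeq2 and 1 to 2 with a library left out. For the difference between cell types with BMS493 (1 as reported) it was 2 with the replicate block, 2 with DESeq2 and 0 to 1 with a library left out.

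Directions turned only in uncalled values. Adm with ATRA over alone (log2 fold change -0.18) was 0.26 without batch mbb340 and -0.65 to 0.61 with a library left out. In PDPN+ cells Vegfa in transwell over alone (1.19) was -0.29 without batch mbb340 and -0.0067 to 1.66 with a library left out, Adm in transwell over alone (0.34) was -0.90 to 0.78 with a library left out, and Vegfa with BMS493 over co-culture (-0.19) was 1.09 without co-culture replicates 2 and 3, an alternative chosen after seeing the data, and -0.84 to 0.37 with a library left out. The fit without co-culture replicates 2 and 3 set 1 co-culture library, of batch mbb336, against BMS493 libraries of all 3 batches. Vegfa in PDPN+ cells alone over macrophages alone (-0.25) was -0.66 to 0.048 with a library left out. The causes were not tested.

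Counts over all genes moved more. Over all alternatives including left-out libraries, macrophage counts ran from 1952 to 4297 in culture alone over ex vivo (3164 as reported), 3 to 327 with ATRA over alone (58), 1 to 930 in co-culture over alone (124), 0 to 323 in transwell over alone (5), 43 to 430 with BMS493 over co-culture (151), 12 to 1279 with BMS493 over alone (131), 0 to 242 with ATRA over co-culture (10), 0 to 148 in co-culture over transwell (7) and 274 to 2231 with ATRA over BMS493 (712). PDPN+ counts ran from 0 to 351 in co-culture over alone (0), 0 to 20 in transwell over alone (0), 0 to 116 with BMS493 over co-culture (3), 0 to 686 with BMS493 over alone (46) and 0 to 133 in co-culture over transwell (1). They ran from 5319 to 8852 between cell types (8159), and for the differences between cell types from 121 to 681 (207) in co-culture, 0 to 33 (0) in transwell culture and 212 to 914 (403) with BMS493. Of 90 group levels, 7 moved beyond their SD when CPM were taken over unscaled totals.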
